A study of Homo sapiens with 8 samples.

Results

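The 10 human Toll-like receptor genes, TLR1 to TLR10, were described by the open chromatin around them in U-937 cells. Of 20033 protein-coding genes in the annotation, these 10 were chosen by gene name. Every ATAC-seq peak that overlapped a gene body or the 25 kb on either side of it was counted as near that gene. Peaks that overlapped within a list were joined into 1 region, and the 4 peak lists together gave 67 separate regions near the 10 genes, out of 161291 in all.

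Toll-like receptors are membrane proteins of innate immune cells that recognise conserved microbial molecules and signal through adaptor proteins to NF-kB and interferon regulatory factors. TLR1, TLR2, TLR4, TLR5, TLR6 and TLR10 act mainly at the cell surface, where they meet lipids, lipoproteins and flagellin. TLR3, TLR7, TLR8 and TLR9 sit in endosomes and bind nucleic acids. Monocytes and macrophages use many of these receptors, and accessible promoters and enhancers generally accompany transcription, which was not measured here.

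The assay was ATAC-seq, which uses a transposase to insert sequencing adapters into accessible DNA, and the cells were U-937, an established human monocytic line. Cells were cultured for 24 h in the vehicle DMSO or in 0.1 µM ATRA, 0.1 µM Corin or 0.1 µM of both compounds, the last called the combination here. ATRA is all-trans retinoic acid, a ligand of the retinoic acid receptors, and Corin inhibits the demethylase and deacetylase enzymes of the CoREST co-repressor complex. The 8 samples made 4 groups of 2, and 1 peak list per group was used, in which the authors had pooled the samples. No value therefore has a spread between replicates, no difference was tested, and an interval given below covers the counting of reads only.

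The strength of a peak is given by the authors' fold, the read pileup at its summit over the local background. The lists held between 94917 and 116563 regions, of which 53 with DMSO, 57 with ATRA, 56 with Corin and 58 with the combination lay near the 10 genes. The most frequent background was lower with ATRA, at 9.12 reads, than with DMSO (12.8), Corin (13.1) or the combination (13.9), and the median fold of all peaks was higher, at 4.80 against 3.32 to 3.68. For that reason folds of 2 lists are compared as a ratio divided by the median ratio over all regions that both lists hold, called the adjusted ratio, and a region at least 1.5 times above or below 1 is counted as higher or lower. The weakest peak had a −log10 p of 2.79 in the DMSO list and of 2.0 in the other lists. At the most frequent background this equals a fold of 1.88 with DMSO, 1.78 with ATRA, 1.63 with Corin and 1.61 with the combination. A region absent from a list can therefore still hold reads below these values. On a higher background a listed fold can be lower, such as 1.38 near ALAS1 with the combination. The lists are also labelled as filtered by naive overlap, so an absent region may hold a fold above these values. The labelled cell type was checked against promoter peaks of marker genes. Of 10 myeloid markers, 9 had a promoter region with DMSO, ATRA and the combination, and all 10 with Corin. Of 6 T-cell markers, CD8A, BCL11B and LCK had one in every list and CD3D, CD3E and CD3G had one in none. Of 5 B-cell markers, 4 had one in every list. Of 5 erythroid markers, 3, 1, 2 and 2 had one with DMSO, ATRA, Corin and the combination. Of 4 epithelial markers, 3 had one with DMSO and 1 in each treated list, and of 4 liver markers 1 had one in every list. Promoter peaks alone thus did not separate the myeloid from the B-cell markers.

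Sequences are shown for the 4 endosomal receptors, of which TLR3, TLR7 and TLR8 had a promoter region in some lists only and TLR9 had a higher fold with ATRA, and for 4 regions near TLR7, TLR8 and TLR10 whose fold differed by more than 2 times between lists. The first 4 are the 250 bases before the outermost annotated start of each gene, read in the direction of transcription from hg38. They lie at chr4:186068661-186068910 (plus strand, TLR3), chrX:12866822-12867071 (plus, TLR7), chrX:12906370-12906619 (plus, TLR8) and chr3:52225646-52225895 (minus, TLR9). Capitals mark the PU.1 letters AGGAAGT and, in the TLR7 and TLR8 sequences, the C/EBP letters TTGCNNAA, or, in the TLR9 sequence, the AP-1 letters TGANTCA, on either strand.
TLR3: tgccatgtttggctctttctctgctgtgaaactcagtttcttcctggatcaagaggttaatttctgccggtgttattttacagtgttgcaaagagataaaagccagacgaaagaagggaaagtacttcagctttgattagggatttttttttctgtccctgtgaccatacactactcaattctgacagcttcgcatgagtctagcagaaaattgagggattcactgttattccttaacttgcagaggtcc
TLR7: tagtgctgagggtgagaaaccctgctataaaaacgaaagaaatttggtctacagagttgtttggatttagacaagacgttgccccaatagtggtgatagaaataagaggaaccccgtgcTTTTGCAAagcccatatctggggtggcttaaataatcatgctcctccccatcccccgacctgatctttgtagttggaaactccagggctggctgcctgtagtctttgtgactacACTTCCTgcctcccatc
TLR8: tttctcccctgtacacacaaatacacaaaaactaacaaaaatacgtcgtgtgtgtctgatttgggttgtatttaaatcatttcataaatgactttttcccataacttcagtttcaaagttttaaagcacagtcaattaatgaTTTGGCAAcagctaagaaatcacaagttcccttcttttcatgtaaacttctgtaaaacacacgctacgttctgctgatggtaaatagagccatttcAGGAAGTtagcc
TLR9: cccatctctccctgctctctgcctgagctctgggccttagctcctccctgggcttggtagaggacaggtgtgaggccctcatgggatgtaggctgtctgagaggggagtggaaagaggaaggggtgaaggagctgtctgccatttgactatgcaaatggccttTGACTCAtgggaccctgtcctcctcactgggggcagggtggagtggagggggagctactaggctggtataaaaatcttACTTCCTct

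The other 4 sequences are 200 bases of the plus strand of hg38 around the strongest summit of a region. The region in the TLR7 intron was centred in chrX:12874681-12874880, the region between TLR7 and TLR8 in chrX:12897016-12897215, the region in the TLR8 coding exon in chrX:12919134-12919333, and the region beyond the end of TLR10 in chr4:38769206-38769405. Capitals mark the PU.1 letters AGGAAGT, the AP-1 letters TGANTCA, the NF-kB letters (GGGA and CC with any 4 bases between them) and the RUNX letters TGTGGT on either strand, and in the TLR8 exon a PU.1 match and an NF-kB match overlap.
TLR7 intron: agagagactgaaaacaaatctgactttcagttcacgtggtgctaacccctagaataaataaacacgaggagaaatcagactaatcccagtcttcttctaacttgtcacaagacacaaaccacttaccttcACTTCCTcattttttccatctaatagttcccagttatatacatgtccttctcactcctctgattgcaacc
TLR7 to TLR8: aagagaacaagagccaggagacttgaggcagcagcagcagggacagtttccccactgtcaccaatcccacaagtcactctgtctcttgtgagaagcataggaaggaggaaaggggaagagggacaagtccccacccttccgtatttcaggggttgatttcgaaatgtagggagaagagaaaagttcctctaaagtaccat
TLR8 coding exon: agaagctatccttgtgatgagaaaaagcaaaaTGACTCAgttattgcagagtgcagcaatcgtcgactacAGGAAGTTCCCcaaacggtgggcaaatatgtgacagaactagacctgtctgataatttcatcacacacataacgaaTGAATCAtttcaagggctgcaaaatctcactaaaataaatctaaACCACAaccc
beyond TLR10: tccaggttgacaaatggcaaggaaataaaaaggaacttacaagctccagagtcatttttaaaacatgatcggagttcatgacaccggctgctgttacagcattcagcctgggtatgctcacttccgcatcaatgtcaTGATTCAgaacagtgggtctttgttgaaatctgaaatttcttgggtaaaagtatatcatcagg

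The promoters of TLR3, TLR7 and TLR8 had no region in the DMSO list and had one in both lists that included ATRA. The other 7 receptors had a promoter region, within 1 kb of an annotated start, in every list. In all, 7 of 10 promoters had a region with DMSO (71.3% of all coding genes did), 10 with ATRA (69.0%), 8 with Corin (69.6%) and 10 with the combination (69.1%). A promoter region present with ATRA and absent from DMSO was found at 1.38% of all coding genes, one present with Corin and absent from DMSO at 1.62%, and one present with the combination and absent from DMSO at 1.58%. Presence with both ATRA and the combination but with neither DMSO nor Corin held for 77 genes (0.384%), and TLR3 and TLR8 were among them. No receptor promoter that had a region with DMSO lacked one in a treated list, whereas 3.7% of coding genes did with ATRA, 3.3% with Corin and 3.82% with the combination. The combination added the promoters of TLR3 and TLR8 to those open with Corin (2.1% of coding genes) and none to those open with ATRA (2.29%), and it lacked none of those open with ATRA (2.21%) or Corin (2.67%). At the main start of the 6 surface receptors, the strongest region had adjusted ratios of ATRA over DMSO between 0.66 (TLR10) and 1.23 (TLR2). That of TLR9 stood at 1.68.

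TLR3, the receptor for double-stranded RNA, lies on the plus strand of chromosome 4 at 186068911 to 186088073. Its only region, at 186068088 to 186069494 over the start and the first untranslated exon, was listed at a fold of 9.49 with ATRA and 4.55 with the combination. The DMSO and Corin lists had no peak within 25 kb of the gene, and the combination held the region in 2 separate pieces. The pileup at the summit was 105 reads with ATRA and 67 with the combination, and the 2 summits were at 186069165 and 186069149. The adjusted ratio of the combination over ATRA was 0.61 (95% counting interval 0.44 to 0.83), and 12.9% of all shared regions near coding genes were at least as far in that direction.

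TLR7, a receptor for single-stranded RNA, lies on the plus strand of the X chromosome at 12867072 to 12890361. Its promoter region, at 12866745 to 12867257, was absent with DMSO and had a fold of 6.72 with ATRA, 2.26 with Corin and 3.88 with the combination. The Corin peak was near the limit of its list, with 31 reads and a −log10 p of 5.12, and it was lost when peaks were limited to a −log10 q of at least 5. The fold was higher in the combination than with Corin (adjusted ratio 1.6, interval 1.02 to 2.56) and lower than with ATRA (0.73, interval 0.5 to 1.06), though the second interval includes 1.

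A region in the intron of TLR7, at 12874443 to 12875098, had the highest fold in the TLR7 window. It was absent with DMSO and was listed at 14.83 with ATRA, 4.31 with Corin and 11.98 with the combination, from 149, 60 and 178 reads. The combination stood at 2.59 times Corin (adjusted ratio, interval 1.92 to 3.53), a ratio reached by 0.882% of shared regions, and at 1.02 times ATRA. All 3 summits fell between 12874781 and 12874792. Its fold with ATRA lay within the range of 12.21 to 15.55 of the TLR1, TLR2, TLR4 and TLR5 promoters at their main starts in the same list. The TLR6 promoter (20.16) was above that range and the TLR10 promoter (3.91) below it.

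TLR8, the neighbouring receptor for single-stranded RNA, lies downstream of TLR7 on the same strand, at 12906620 to 12923169. Its promoter region, at 12906441 to 12906729, had a fold of 7.40 with ATRA and 4.67 with the combination and was absent with DMSO and Corin. Its pileups were 144 and 98 reads, and its summits lay 22 bp or less before the start. The adjusted ratio of the combination over ATRA was 0.8 (interval 0.61 to 1.04), which includes 1.

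**Figure D1:**
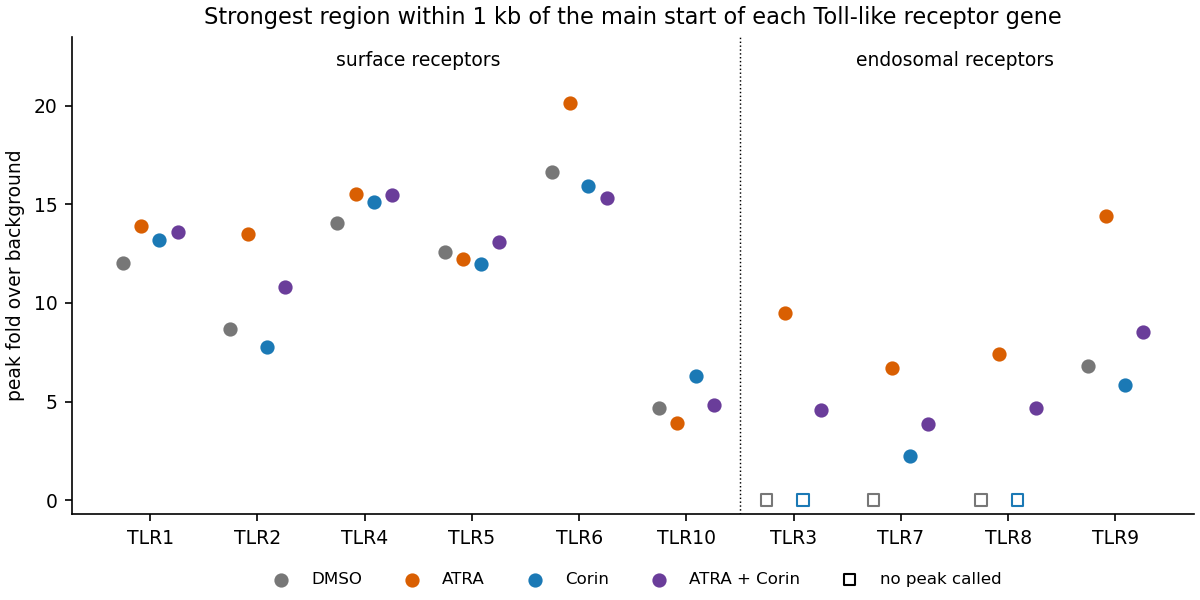
Fold over background (vertical axis) of the strongest region within 1 kb of the main start of each receptor gene, with 1 filled point per peak list and open squares on the zero line where no peak was listed. TLR3 and TLR8 have points only with ATRA and the combination, TLR7 has none with DMSO, and the surface receptors on the left have points in all 4 lists.

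Regions around TLR7 and TLR8 that DMSO also held were in part highest with ATRA too. At 12896716 to 12897460 the fold was 4.92 with DMSO, 13.78 with ATRA, 4.22 with Corin and 7.97 with the combination. The adjusted ratio was 2.22 for ATRA over DMSO (interval 1.74 to 2.86, reached by 4.91% of shared regions), 1.59 for the combination over DMSO and 1.76 for the combination over Corin. The region 1.2 kb upstream of TLR7, at 12865139 to 12865837, had folds of 5.36, 11.86, 4.03 and 5.69 in the order DMSO, ATRA, Corin and combination (ATRA over DMSO 1.75, interval 1.3 to 2.38). The regions at 12890411 to 12891567, just beyond the end of TLR7, and at 12910349 to 12911497, in the first part of TLR8, had adjusted ratios of 1.43 and 1.45 for ATRA over DMSO, below the limit of 1.5. Not every region of the locus was higher with ATRA. At 12901359 to 12902173 the folds were 7.15, 6.33, 7.91 and 7.99, and at 12894154 to 12894387 the peak listed with DMSO (5.20), Corin (3.85) and the combination (3.07) was absent with ATRA.

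One region of TLR8 had its highest fold with Corin. At 12918939 to 12919551, with its summit in the large coding exon of TLR8 (12919044 to 12922163), the fold was 4.64 with DMSO, 10.06 with Corin and 3.48 with the combination, and no peak was listed with ATRA. Corin over DMSO gave an adjusted ratio of 2.3 (interval 1.7 to 3.13), and the combination over Corin one of 0.32 (0.23 to 0.45). These ratios were reached by 0.853% and 0.521% of shared regions. A weak peak next to it, at 12918359 to 12918671, was listed with Corin only, at a fold of 2.84.

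**Figure D2:**
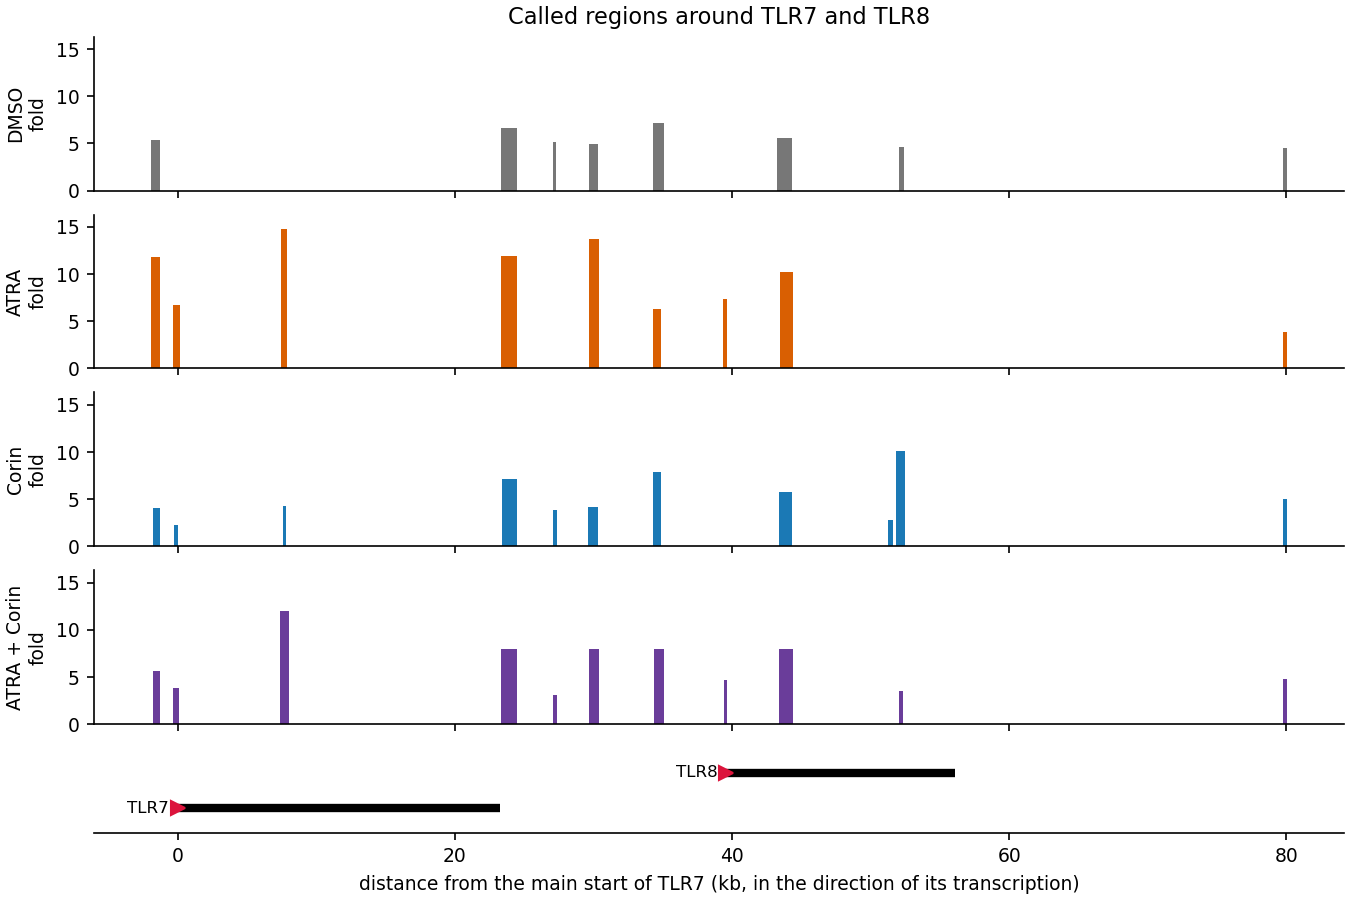
Regions listed around TLR7 and TLR8 in each of the 4 lists, with the distance from the TLR7 start in kb (horizontal axis), the fold over background (bar height) and the gene bodies below as black lines with a red arrowhead at the main start; bars of narrow regions are widened to 0.25 kb. The bar in the TLR7 intron is missing with DMSO and reaches 14.83 with ATRA, and the bar near 52 kb reaches 10.06 with Corin only.

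TLR9, the receptor for unmethylated CpG DNA, lies on the minus strand of chromosome 3 at 52221080 to 52225645, inside a readthrough gene. Its promoter region, at 52225338 to 52226739, was present in every list, with a fold of 6.82 with DMSO, 14.42 with ATRA, 5.85 with Corin and 8.51 with the combination. ATRA over DMSO gave an adjusted ratio of 1.68 (interval 1.51 to 1.86), which 11.8% of shared regions reached. The local background was lower with ATRA, at 92.2 reads with DMSO and 53.7 with ATRA, while the pileups were 635 and 788 reads. On pileups alone the adjusted ratio was 1.16, below the limit of 1.5. The part of the background in the higher fold was not tested.

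Most other regions in the TLR9 window lay in the neighbouring genes ALAS1, TWF2 and PPM1M. A region 1680 bp from the start of ALAS1, which encodes the first enzyme of heme synthesis, at 52195845 to 52196406, had folds of 2.01 with DMSO, 5.0 with ATRA and 1.38 with the combination and was absent with Corin. Its adjusted ratio was 1.98 for ATRA over DMSO (interval 1.69 to 2.31) and 0.35 for the combination over ATRA (0.3 to 0.4). A peak in an intron of TWF2, an actin-binding protein, at 52240548 to 52240848, was listed at 3.78, 3.5 and 3.27 with DMSO, Corin and the combination and was absent with ATRA. Close to it, the region at 52240139 to 52240445 was listed with DMSO (1.75) and Corin (2.20). In ALAS1, an intronic region at 52201393 to 52202152 was listed with DMSO (2.65) and ATRA (2.83), and a coding-exon region at 52204756 to 52205039 with Corin only (2.86). In PPM1M, a region at 52246810 to 52247051 was listed with ATRA only (3.77). These peaks stood on backgrounds of 52.3 to 200 reads, far above the most frequent ones, and their folds were low.

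Among the surface receptors, TLR2 is the shared partner of TLR1 and TLR6 in the recognition of lipoproteins. It lies on the plus strand of chromosome 4 at 153684070 to 153706260, and its 6 regions were present in all 4 lists. Its promoter region, at 153683945 to 153685437, had folds of 8.67 with DMSO, 13.50 with ATRA, 7.76 with Corin and 10.79 with the combination. The adjusted ratio of ATRA over DMSO was 1.23 (interval 1.03 to 1.48), below the limit of 1.5. The region 22 kb upstream at 153660944 to 153662041 had the highest fold of the window with DMSO (12.56), ATRA (17.77) and Corin (10.30), and stood at 12.09 with the combination. In the combination list the highest fold, 13.70, was at 153705741 to 153707278, at the end of the gene. The upstream region at 153665917 to 153666731 was lower with ATRA (6.52 with DMSO and 4.77 with ATRA, adjusted ratio 0.58, interval 0.45 to 0.74) and with the combination (3.68, 0.55, interval 0.42 to 0.72), and on pileups these ratios were 0.45 and 0.36.

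TLR6, TLR1 and TLR10 lie in a row on the minus strand of chromosome 4, and their windows overlap, so 1 region can count for up to 3 genes. TLR1 and TLR6 pair with TLR2, and TLR10 is the family member with the least settled ligand. The strongest region of the TLR1 and TLR6 windows was the promoter of the neighbouring gene FAM114A1, at 38867320 to 38868399, with folds of 23.80, 25.26, 23.77 and 25.48 in the order DMSO, ATRA, Corin and combination. The promoter region of TLR6, at 38857278 to 38858301, had folds of 16.66, 20.16, 15.92 and 15.31 and ended 461 bp before the annotated start. A weaker region over that start, at 38856508 to 38857014, was listed only with Corin (3.11) and the combination (3.82). Another, at 38856066 to 38856296, was listed only with ATRA (3.12).

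TLR1 had its main start at 38804791 and a pair of regions there. The stronger, at 38805427 to 38806193, had folds of 12.04 with DMSO, 13.91 with ATRA, 13.19 with Corin and 13.62 with the combination. The pileups were 229, 401, 335 and 633 reads on backgrounds of 18.1, 27.9, 24.5 and 45.6, so the background was higher by about as much as the summit. The adjusted ratio of the combination over DMSO was 1.11 on folds and 2.48 on pileups, and that of ATRA over DMSO was 0.92 and 1.63. The weaker region, over the start at 38804596 to 38805325, had folds of 5.70, 3.99, 5.31 and 4.15 in the same order. Its adjusted ratio of ATRA over DMSO was 0.55 on folds (interval 0.42 to 0.73) and 1.03 on pileups. Whether chromatin at the TLR1 start differed between the lists thus depended on whether the local background was divided out.

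The region with the highest fold of the TLR10 window in the 3 treated lists was an intergenic one beyond the end of the gene, at 38761245 to 38761973. Its folds were 11.19 with DMSO, 21.40 with ATRA, 15.71 with Corin and 21.46 with the combination. The adjusted ratios over DMSO were above 1 in all 3 treated lists. They were 1.52 (ATRA), 1.49 (Corin, just below the limit of 1.5) and 1.88 (the combination, interval 1.61 to 2.21, reached by 2.96% of shared regions). On pileups of 206, 518, 345 and 723 reads the ratio of the combination was 3.14 and that of ATRA 2.34. That of Corin was 1.83 on pileups, past the limit. With DMSO the highest fold of the window was in an intergenic region upstream of TLR10, at 38785536 to 38786538, which had 19.01 with DMSO, 21.09 with ATRA, 11.62 with Corin and 13.35 with the combination. Its adjusted ratio of Corin over DMSO was 0.65 (interval 0.55 to 0.77), the only one lower by at least 1.5 times with Corin among the 48 regions that both lists held. The promoter region of TLR10, at 38782855 to 38783160, was among the weakest of the promoters, with folds of 4.67, 3.91, 6.31 and 4.81. Its adjusted ratio was 0.66 for ATRA over DMSO, or 0.74 when scaled by promoter regions alone, and 1.43 for Corin over DMSO. Closer to the end of TLR10, the intergenic region at 38768976 to 38769708 had folds of 3.99, 11.47, 4.81 and 4.55. ATRA over DMSO gave 2.28 (interval 1.64 to 3.21, reached by 4.44%), and the combination over ATRA gave 0.5 (0.37 to 0.68), and the fold in the combination was close to that with DMSO.

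**Figure D3:**
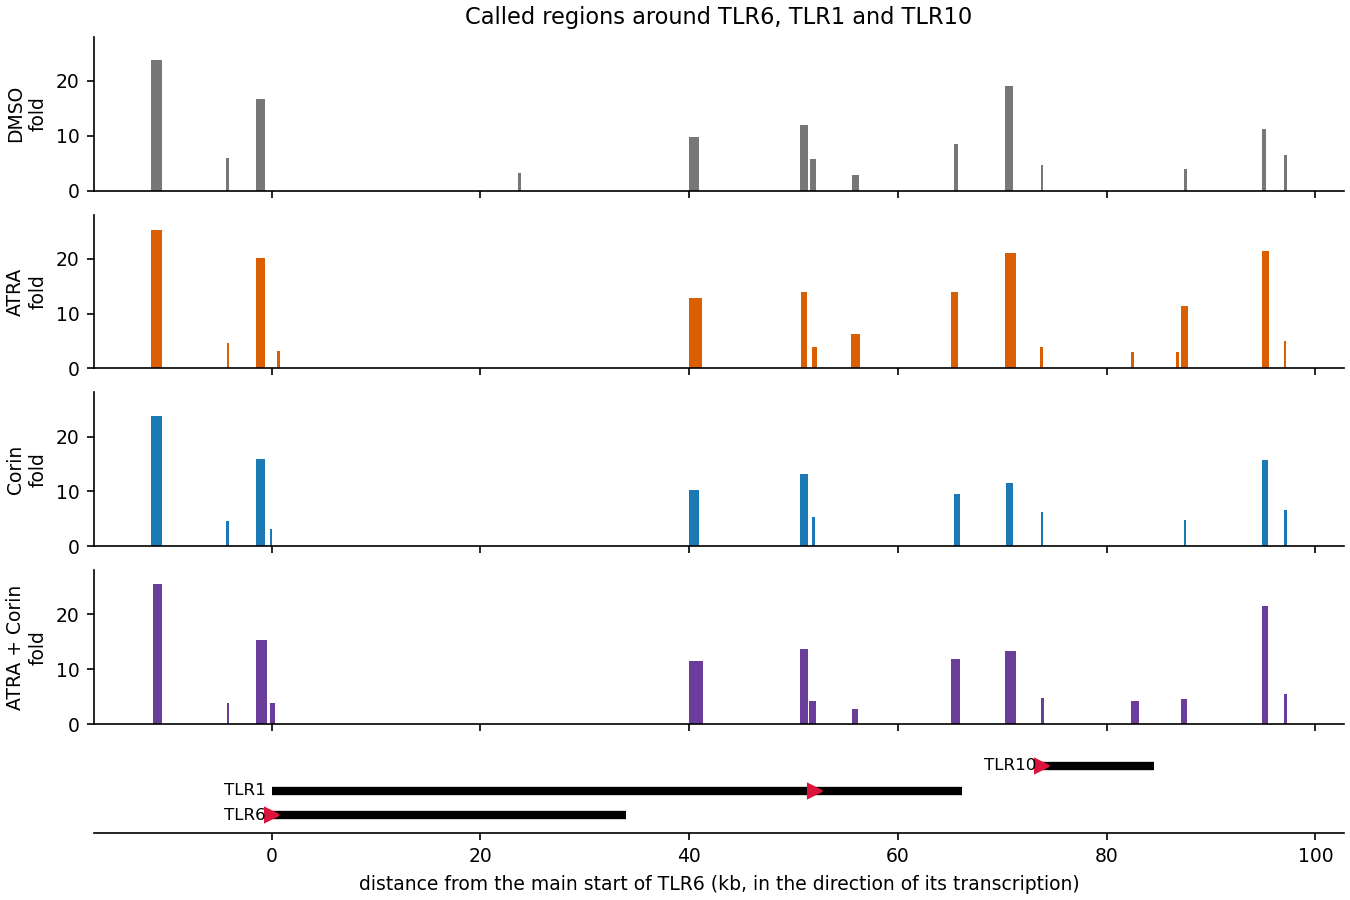
Regions listed around TLR6, TLR1 and TLR10 in each of the 4 lists, with the distance from the TLR6 start in kb along the direction of transcription (horizontal axis), the fold over background (bar height) and the gene bodies below with a red arrowhead at the main start; narrow regions are widened to 0.25 kb. Most bars recur in all lists, and the bar near 88 kb stands at 11.47 with ATRA against 3.99 to 4.81 elsewhere.

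TLR4, the receptor for bacterial lipopolysaccharide, lies on the plus strand of chromosome 9 at 117704175 to 117724735 and is overlapped by a readthrough gene. Its promoter region, at 117703714 to 117705031, was the strongest of its window, with folds of 14.06 with DMSO, 15.55 with ATRA, 15.11 with Corin and 15.48 with the combination. The adjusted ratios over DMSO were 0.88 (ATRA), 1.14 (Corin) and 1.08 (the combination) on folds and 1.45, 1.31 and 1.36 on pileups, so that with ATRA the direction depended on the measure. Of the 7 regions near TLR4, 4 were in all lists, 2 weak ones within the gene were in the ATRA list only, and 1 upstream was in the Corin list only, at a fold of 5.16.

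TLR5, the receptor for flagellin, lies on the minus strand of chromosome 1 at 223109404 to 223143248. Its promoter region at the main start, at 223142708 to 223144235, had folds of 12.59, 12.21, 11.99 and 13.10 in the order DMSO, ATRA, Corin and combination. Its adjusted ratios over DMSO were 0.77, 1.01 and 1.02. Other annotated starts had a stronger and a weaker region. The stronger, at 223133488 to 223134461, had folds of 14.4, 17.76, 13.41 and 14.61 and ratios of 0.98, 0.99 and 1.0. The weaker, at 223137291 to 223138062, had folds of 5.48, 5.88, 7.14 and 7.45 and ratios of 0.85, 1.38 and 1.33. At the weaker one, pileup ratios over DMSO were 1.82 (Corin) and 1.73 (the combination), and the combination over ATRA gave 1.6 on folds. An upstream region, 9674 bp from the nearest TLR5 start at 223152922 to 223154108, was lower in both lists that included ATRA. Its folds were 15.11 with DMSO and 14.92 with Corin, against 10.97 with ATRA and 9.12 with the combination, and its pileups were 337 and 473 against 114 and 161 reads. The adjusted ratio was 0.58 for ATRA over DMSO (interval 0.46 to 0.71), 0.59 for the combination over DMSO (0.49 to 0.72) and 0.57 for the combination over Corin (0.47 to 0.68), and on pileups the same ratios were 0.32, 0.43 and 0.28. The strongest region of the window lay beyond the other end of the gene, at 223089499 to 223090562, with folds of 16.58, 25.78, 15.88 and 15.98 and adjusted ratios over DMSO between 0.91 and 1.07 on pileups.

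Across all 67 regions, 43 (64.2%) were present in all 4 lists, against 42.5% of the regions near coding genes. Regions of a single list were 5 with ATRA only (7.46%, against 11.2% near coding genes), 3 with Corin only (4.48%, against 7.81%) and 1 with DMSO only (1.49%, against 10.1%), the last a peak in an intron of TLR1 and TLR6. Another 3 were in ATRA and the combination (4.48%, against 3.22%), 3 in all lists but ATRA (4.48%, against 2.35%), and 3 in all lists but DMSO (4.48%, against 0.954%). Those in all lists but DMSO were the promoter and the intron of TLR7 and a weak region between ALAS1 and TLR9. In the last, the Corin peak (52217084 to 52217323) and the combination peak (52216596 to 52216914) did not overlap and were joined only through the ATRA region. The 3 regions in both ATRA and the combination only were the promoters of TLR3 and TLR8 and a coding-exon region of TLR10, listed at 2.97 and 4.22. Regions near the receptors were mostly strong in their lists, with 39, 39, 40 and 36 of them in the stronger 50% for DMSO, ATRA, Corin and the combination. The part of this strength in the share found in all lists was not tested. The summit in the list with the highest fold lay outside coding genes in 29 of the 67 regions and in a coding exon in 3. The 29 include promoter summits just before a start, such as those of TLR8 and TLR10.

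The counts of regions without a counterpart stayed near or below the background of each pair of lists. Of 57 ATRA regions 11 were absent from DMSO (22.6% of such regions near coding genes were), and of 53 DMSO regions 6 were absent from ATRA (24.5%). With Corin, 7 of 56 were absent from DMSO (16.9%), and 4 DMSO regions were absent from Corin (27.7%). With the combination, 9 of 58 were absent from DMSO (15.8%), and 4 DMSO regions were absent from the combination (30.6%). The combination held 4 regions absent from ATRA (14.3%) and 8 absent from Corin (19.6%). Conversely, 6 ATRA regions (27.4%) and 6 Corin regions (24.0%) were absent from the combination. Separate pieces of a joined region count singly here. The 9 and the 8 count the TLR3 promoter once for each of its pieces. Both include a piece of a region in an intron of TLR1 whose other part the reference list also held. The region between ALAS1 and TLR9 is counted as absent in both directions between Corin and the combination. By −log10 p, the strongest of the 11 present with ATRA and absent from DMSO were the TLR7 intron at 123, the TLR8 promoter at 75.8 and the TLR3 promoter at 67.7.

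Among regions that both lists of a pair held, some receptor regions were higher and others lower. The median adjusted ratio, which says nothing of regions that differ in opposite directions, was 1.0 for ATRA over DMSO, 1.01 for Corin over DMSO, and 1.03 for the combination over DMSO, close to the values over all regions near coding genes (1.0, 1.01 and 1.01). For ATRA over DMSO, 8 of 46 shared regions were at least 1.5 times higher (16.4% of shared regions near coding genes) and 6 were lower by as much (8.07%). For Corin over DMSO, 1 of 48 was higher (6.0%) and 1 was lower (9.95%). For the combination over DMSO, 2 of 48 were higher (8.24%) and 4 were lower (10.7%). On pileups the counts were larger, with 14 higher (18.0%) and 4 lower (15.3%) for ATRA, 9 higher (9.52%) and 3 lower (13.2%) for Corin, and 10 higher (12.5%) and 6 lower (18.0%) for the combination. Without the division by the median ratio, ATRA over DMSO had 16 higher (31.6%) and 0 lower (2.66%) regions, so the split between higher and lower rested on the scaling.

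**Figure D4:**
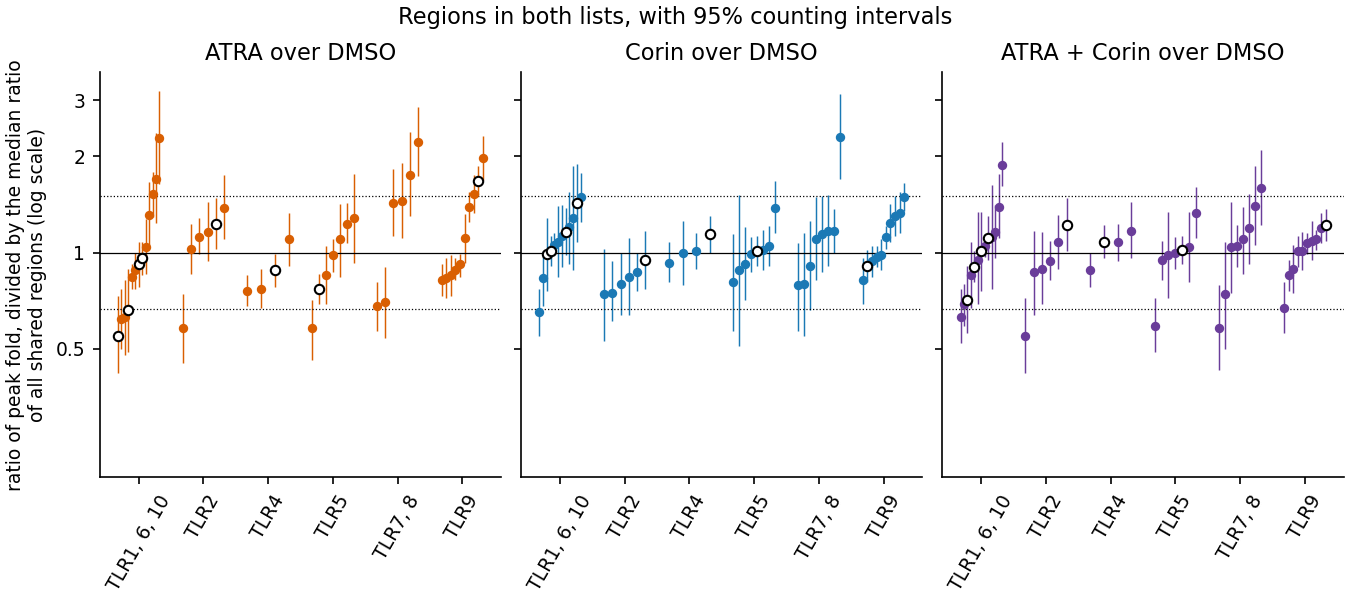
Adjusted ratio (log scale, vertical axis) of each region that a treated list shared with DMSO, grouped by receptor locus. Bars are 95% counting intervals, open circles are receptor promoters at the main start, and dotted lines mark 1.5 times higher and lower. With ATRA the points reach 2.28 at the TLR1, TLR6 and TLR10 locus and 2.22 at the TLR7 and TLR8 locus, and with Corin the highest point is the TLR8 coding exon at 2.3.

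Adding Corin to ATRA, and ATRA to Corin, can be read from the remaining pairs. The combination over ATRA had 5 of 51 shared regions higher (7.24%) and 6 lower (16.9%), and among the lower ones were the TLR3 promoter and the regions upstream of TLR7 and beyond TLR10. Without the division these counts were 0 (1.84%) and 16 (31.4%). The combination over Corin had 3 of 50 higher (9.55%) and 2 lower (7.97%). The 3 higher regions were the promoter and the intron of TLR7 and the region between TLR7 and TLR8, and the lower ones were the TLR8 coding exon and the region upstream of TLR5. The adjusted ratio of the combination over ATRA was 0.61 at the TLR3 promoter, 0.73 at that of TLR7, 0.8 at that of TLR8 and 1.02 in the TLR7 intron, and all of these intervals but that of TLR3 include 1. On pileups the combination over Corin had 6 higher (12.3%) and 5 lower (14.4%).

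Between the lists, the median distance between summits of a shared region was 6.5 bp for ATRA and DMSO, 7.5 bp for Corin and DMSO and 8.0 bp for the combination and DMSO, against 9.0, 10.0 and 10.0 bp near coding genes. Of the 46, 48 and 48 shared regions, 82.6%, 91.7% and 93.8% had their summits within 50 bp of each other, against 89.6%, 86.3% and 87.8% near coding genes.

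Sequence matches were counted in the 250 bases before the outermost start of each receptor and in 200 bases around each summit, on both strands. TLR1 and TLR6 share their outermost start, and so the same 250 bases. The PU.1 letters AGGAAGT occurred in 3 of 10 receptor promoters (6.79% of all coding genes) and in 16 of 67 summit windows (16.2% of all regions). The 3 promoters were those of TLR7, TLR8 and TLR9, all printed above, where the match begins at base 234, 239 and 242 of 250, close to the start. The C/EBP letters TTGCNNAA occurred in the TLR7 and TLR8 promoters only (7.97% of all promoters), and the AP-1 letters TGANTCA in that of TLR9 only (5.46%). The RUNX letters TGTGGT were in 3 of 10 promoters (10.3%), those of TLR2, TLR4 and TLR10, and the NF-kB letters (23.9%) and the IRF letters (2.96%) in 0 of 10. The TLR3 sequence held none of the 7 motifs searched, but the 200 bases around the summit of its promoter region held 1 IRF match. NF-kB letters, absent before the starts, occurred 2 times each in the summit windows of the TLR2 and TLR5 promoter regions. The retinoic acid receptor repeat, AGGTCA on both sides of any 5 bases with 1 mismatch allowed, was in 0 of 10 promoters (0.115%) and 0 of 67 windows (0.215%), and these motifs, NF-kB included, were searched only in the windows named. The TLR8 exon window held 2 AP-1 matches, and the region beyond TLR10 held 1. AP-1 letters were in 11 of 67 receptor windows (12.2% of all windows), NF-kB letters in 13 (12.8%), C/EBP letters in 10 (14.5%), RUNX letters in 13 (20.7%) and the IRF letters (GAAA on both sides of any 2 bases) in 3 (3.07%).

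The genes that carry the receptors' signals were compared by a list of 29 adaptors, co-receptors, kinases and inhibitors. Their promoters were open in nearly all lists, 27 of 29 with DMSO, ATRA and Corin and 28 with the combination. CD14, a co-receptor for lipopolysaccharide, had no promoter region in any list. LBP, the lipopolysaccharide-binding protein, had one with ATRA (3.87) and the combination (2.38) only. CD180, a relative of TLR4 best known from B cells, had one with DMSO (2.38), Corin (4.45) and the combination (2.86) but not with ATRA. MYD88 is the adaptor used by most of the receptors. The region at its promoter, at 38136496 to 38138101, overlapped the body of the gene ACAA1 and not that of MYD88. It had folds of 13.60, 13.99, 12.63 and 13.77 in the order DMSO, ATRA, Corin and combination.

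Corin, alone or in the combination, had higher values than DMSO at a few signalling promoters. SARM1, an adaptor that also degrades NAD, had folds of 7.90 with DMSO, 5.87 with ATRA, 14.78 with Corin and 15.52 with the combination. Its adjusted ratio was 1.99 for Corin over DMSO (interval 1.63 to 2.42), 1.93 for the combination over DMSO and 0.59 for ATRA over DMSO (interval 0.44 to 0.78). TRAF3, a ubiquitin ligase of the interferon branch, had folds of 6.18, 5.70, 10.10 and 11.56 in the same order, with 1.73 for Corin (1.5 to 2.01) and 1.84 for the combination over DMSO. TICAM1, the adaptor of TLR3, had 11.88, 17.58, 17.64 and 20.05, with 1.58 (1.38 to 1.81) and 1.66. IRAK1, a kinase downstream of MYD88, had 8.0, 7.71, 10.23 and 11.38 and stood at 1.87 for the combination over ATRA. CD180 stood at 1.98 for Corin over DMSO, from a weak DMSO peak of 44 reads, and its interval of 1.35 to 2.94 includes the limit of 1.5. With CD180, Corin over DMSO had 4 of 27 promoters higher (1.34% of coding genes with a main-start region in both lists) and 0 lower (1.13%). ATRA over DMSO had 0 of 26 higher (2.71%) and 1 lower (3.42%), and the combination over DMSO had 3 of 27 higher (2.26%) and 0 lower (1.35%). The combination over ATRA had 3 of 27 higher (7.49%), SARM1 at 3.34, TRAF3 at 2.57 and IRAK1, and 0 lower (2.62%). The combination over Corin had 0 higher (1.53%) and 1 lower (1.02%), CD180 at 0.6. Over DMSO, the list had a median adjusted ratio of 0.89 with ATRA, 1.06 with Corin and 1.09 with the combination, near the 0.87, 1.05 and 1.03 of all coding genes.

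**Figure D5:**
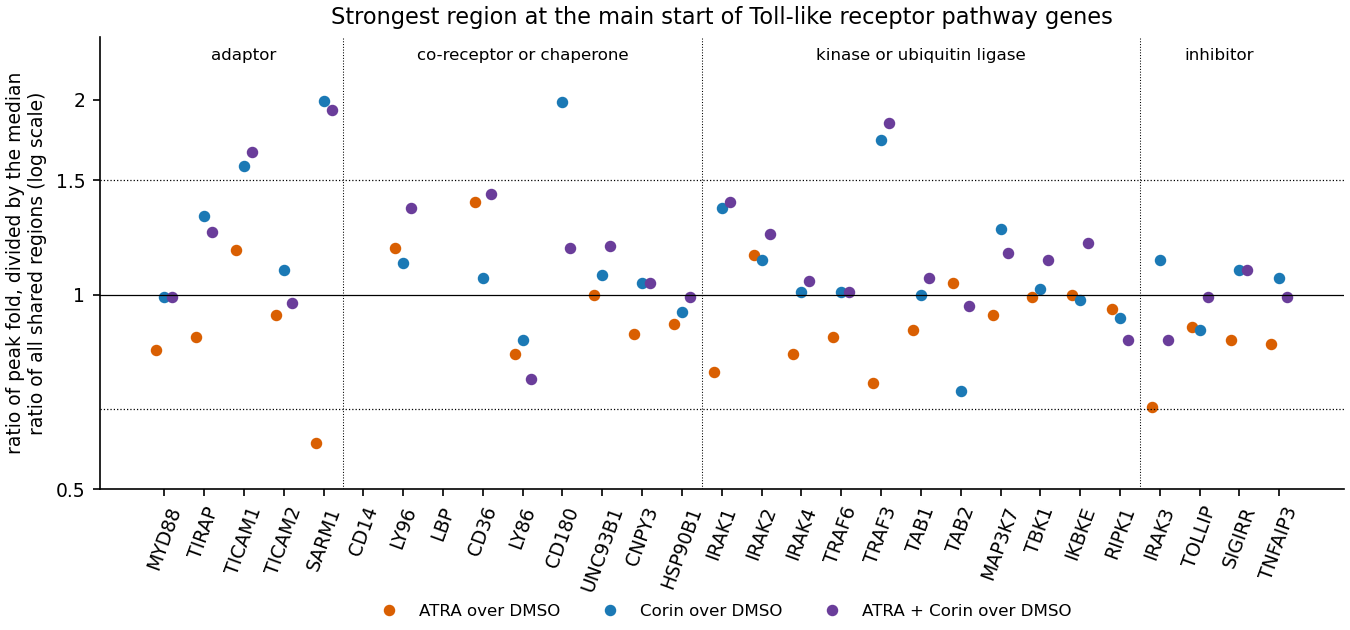
Adjusted ratio over DMSO (log scale, vertical axis) of the strongest region at the main start of each signalling gene, with 1 colour per treated list. Classes of genes are separated by dotted lines, and there is no point where a list lacked the region. SARM1, TRAF3, TICAM1 and CD180 lie above the dotted line at 1.5 with Corin, and SARM1 lies below the lower line with ATRA.

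Every region within 25 kb of these genes was counted as well. At least 1 region higher with ATRA than with DMSO, or absent from DMSO, was found near 25 of the 29 genes (74.2% of all coding genes), and 1 lower or absent with ATRA near 25 (71.1%). For Corin the counts were 24 (59.1%) and 26 (76.0%), and for the combination 22 (57.6%) and 26 (76.7%). The combination over ATRA gave 20 (55.5%) and 25 (78.1%), and the combination over Corin 23 (63.1%) and 27 (66.9%). Each of these shares of the 29 genes, from 69.0% to 93.1%, was above that of all coding genes, in both directions. The windows of the signalling genes also held more regions, a median of 12.0 against 9.0, and the part of that number in the shares was not tested.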

How the data were processed

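ATAC-seq of U-937 cells was used, with 2 samples in each of 4 groups and 1 pooled peak list per group, matched by treatment name. Per the submitters' processing notes the build was hg38 and the tools were cutadapt, Bowtie2, SAMtools, Picard and MACS2; versions and settings are not given in the sources used here. The deposited fold is a ratio of the pileup over the local background, and the deposited p and q are −log10 values. Read depth is unknown.

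Peaks were merged into regions where they overlapped, and a counterpart shared at least 1 bp. Of a region, the peak with the highest −log10 p was used. Pileups and backgrounds were solved from fold and p and were whole, within 0.05, for at least 99.96% of peaks. Intervals are 95% counting intervals of the pileups, with the background taken as known. The annotation was GENCODE release 44, and coordinates are 1-based. Scripts ran in Python 3.11.15 with scipy 1.17.1 and were tested on simulated data.

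The members and lists were chosen with earlier results of these data known. Named regions were promoter regions, the strongest of each window, the 2 strongest without a counterpart per pair and direction, and shared regions whose interval lay past 1.5 times; pathway genes were named where a promoter passed 1.5 times. The regions upstream of TLR5, TLR2 and TLR10, the one at the end of TLR2, the weaker regions around TLR4, TLR7, TLR8, TLR9 and TLR10, LBP, CD14 and MYD88 were added after their values were seen. The regions at other TLR5 starts were also added then. Alternatives were other windows, merging, thresholds, overlaps and scalings.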

Additional observations from a re-analysis of the deposited data

How the results depend on the processing

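No paired analysis was possible because each group had 1 list in which the replicates were pooled. For the same reason no replicate was left out. The depth per sample is unknown, and weak peaks near the limit of a list depend on it.

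Promoter counts stayed within 1.5 times of their values under every alternative. A −log10 q of at least 5 left 7 with Corin, without TLR7. A promoter of 500 bp gave 6, 9, 8 and 10 for DMSO, ATRA, Corin and the combination, and one of 2.5 kb gave 8, 10, 8 and 10. At 500 bp the promoter of TLR6 had no region with DMSO or ATRA. At 2.5 kb that of TLR7 had one with DMSO too, so only TLR3 and TLR8 still lacked one there. The stricter q, merging within 150 bp, an overlap of 50% and lists of equal length kept every count of regions or absent regions they were applied to within 1.5 times.

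The window moved counts of regions most. Gene bodies alone held 19, 25, 20 and 25 regions for DMSO, ATRA, Corin and the combination. Of DMSO regions in gene bodies, ATRA lacked 2, Corin 2 and the combination 1; 3 Corin regions were absent from DMSO and 1 from the combination; 2 combination regions were absent from ATRA and 5 from Corin; and 3 ATRA regions were absent from the combination. Pathway genes with a higher or lower region in the gene body numbered 15 and 14 for ATRA over DMSO, 13 and 16 for Corin over DMSO, 12 and 13 for the combination over ATRA, 13 and 14 for the combination over Corin, and 14 higher for the combination over DMSO. Within 10 kb, DMSO had 34 regions, of which ATRA lacked 3, Corin 2 and the combination 1, and 3 Corin regions were absent from the combination. Within 50 kb, DMSO had 85 regions and ATRA 96; 26 ATRA regions were absent from DMSO and 17 from the combination, ATRA lacked 14 DMSO regions, Corin 13 and the combination 10, and 15 combination regions were absent from Corin and 11 Corin regions from the combination.

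Scaling moved the counts past 1.5 times. Promoter regions alone shifted the median by −0.15 on the log2 scale for ATRA over DMSO and 0.23 for the combination over ATRA. With no division, ATRA over DMSO had 16 higher and 0 lower, and the combination over ATRA 0 and 16. With the promoter median, ATRA over DMSO had 3 lower and the combination over ATRA 1 higher and 10 lower; with the median of the strongest 20% these were 3, 1 and 13. On pileups, ATRA over DMSO had 14 higher, Corin over DMSO 9 higher and 3 lower, the combination over DMSO 10 higher, and the combination over Corin 6 higher and 5 lower. The weaker TLR1 promoter region turned from 0.55 to 1.03 for ATRA over DMSO on pileups; the cause was not tested.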
